A study of Mus musculus with 6 samples.

Results

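The 10 genes described here encode apolipoproteins (Apoa1, Apoa2, Apoa4, Apob and Apoe) and other plasma proteins that the liver is known for making (Alb, Afp, Ambp, Fgb and Serpina7), among 54119 annotated genes of which 16430 were tested. They were chosen by symbol. Apoa1 and Serpina7 were picked because they were much higher in Dpy30 knockout islets, so their differences between groups are given as a description and without a test. Poly(A) RNA of pancreatic islets was compared between 3 male Dpy30 knockout mice and 3 male control mice, all of the strain C57BL/6 and taken at postnatal day 24. Each library held 100 to 200 islets picked by hand from 1 mouse. Dpy30 belongs to the enzyme complexes that place methyl groups on lysine 4 of histone H3, a mark of active promoters. No label says which Cre line was used, what was deleted from the gene or what alleles the control mice carried.

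Apolipoproteins are the protein part of lipoproteins, the particles that carry cholesterol and triglycerides in blood. Apoa1 and Apoa2 are the main proteins of high-density lipoprotein, Apob is the scaffold on which very-low-density lipoprotein and chylomicrons are built, and Apoe is a ligand for lipoprotein receptors and is made by macrophages and glia as well as by the liver. The other genes encode carriers and soluble factors of blood plasma: albumin, alpha-fetoprotein of the fetal liver, the precursor of alpha-1-microglobulin and bikunin (Ambp), the fibrinogen beta chain (Fgb) and thyroxine-binding globulin (Serpina7).

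Estimated reads were 22694892, 17131515 and 23976598 in knockout replicates 1, 2 and 3, against 25208847, 25354384 and 24575889 in control replicates 1, 2 and 3. The predicted gene Gm42418 took 14.7% of the reads of knockout replicate 2 and 0.099 to 0.236% of those of the other 5 libraries. Transcripts without exon 4 (143 bp) carried 80.5 to 82.2% of Dpy30 reads in knockout libraries and 0.438 to 5.24% in control libraries, so each library went with its label. Summed levels of the islet endocrine markers were 105900 to 155900 CPM in knockout and 237100 to 316900 CPM in control libraries. CPM are counts scaled to a common library size by TMM, a method that allows for differences in composition. Of all tested genes, 4.1% were called higher and 5.84% lower in knockout islets by edgeR's quasi-likelihood test at a Benjamini-Hochberg adjusted p below 0.05, and 34.8% had groups that did not overlap. In bulk islets, fewer cells of a type and less RNA per cell cannot be told apart.

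The promoters of 4 of the genes are shown: those of Apoa1 and Serpina7, the genes picked for their difference, and those of Apoa2 and Ambp, the genes called in the fit among the rest. Each sequence runs from 250 bases before to 50 bases after the RefSeq start site on GRCm38.p6, from 5′ to 3′ on the strand of the gene. They span chr9:46228380-46228679 on the plus strand (Apoa1), chrX:139085170-139085469 on the minus strand (Serpina7), chr1:171224804-171225103 on the plus strand (Apoa2) and chr4:63154123-63154422 on the minus strand (Ambp). Capitals mark matches to the motifs searched on both strands. These were TATAAA, the usual form of the TATA box, then GTTAAT, the core of the motif of the HNF1 factors, then TGTTTAC, the core of the motif of the forkhead factors, then CAAAGTC, the core of the motif of the HNF4 factors, and last AGGTCA, the core of many nuclear receptor motifs.
Apoa1: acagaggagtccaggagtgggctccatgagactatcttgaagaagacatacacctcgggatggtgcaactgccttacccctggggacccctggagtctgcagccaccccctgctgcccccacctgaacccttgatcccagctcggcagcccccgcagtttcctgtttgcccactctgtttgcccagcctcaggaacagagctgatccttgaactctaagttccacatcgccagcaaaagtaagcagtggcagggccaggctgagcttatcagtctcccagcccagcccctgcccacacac
Serpina7: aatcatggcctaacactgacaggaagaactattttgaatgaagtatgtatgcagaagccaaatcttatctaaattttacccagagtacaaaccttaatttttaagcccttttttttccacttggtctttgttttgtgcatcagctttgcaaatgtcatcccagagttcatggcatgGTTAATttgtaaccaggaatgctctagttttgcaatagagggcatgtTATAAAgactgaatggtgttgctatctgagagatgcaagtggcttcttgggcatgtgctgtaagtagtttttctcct
Apoa2: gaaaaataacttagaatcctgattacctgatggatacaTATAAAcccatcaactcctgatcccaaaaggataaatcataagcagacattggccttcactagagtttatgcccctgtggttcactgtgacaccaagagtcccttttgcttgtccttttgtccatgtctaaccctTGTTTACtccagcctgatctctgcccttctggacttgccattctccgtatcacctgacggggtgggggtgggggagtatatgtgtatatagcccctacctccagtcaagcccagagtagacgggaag
Ambp: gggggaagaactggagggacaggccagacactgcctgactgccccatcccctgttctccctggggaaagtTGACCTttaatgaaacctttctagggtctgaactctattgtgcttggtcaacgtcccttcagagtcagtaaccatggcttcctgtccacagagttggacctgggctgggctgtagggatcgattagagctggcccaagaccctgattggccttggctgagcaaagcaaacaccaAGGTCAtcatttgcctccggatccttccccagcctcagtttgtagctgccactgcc
In Serpina7 the TATA box began 27 bases and the HNF1 core 74 bases before the start site. Apoa2 had the letters TATAAA 212 bases and the forkhead core 77 bases before the start site. Ambp had the nuclear receptor core 6 bases before the start site and, on the other strand, 180 bases before it. The Apoa1 window held none of these letters. Only exact matches were searched, so a site for the same factors that differs by a base would not be marked. No motif contains another, and the shares of all 32851 RefSeq promoter windows with a match were 13.6% for the TATA box, 7.1% for the HNF1 core, 3.65% for the forkhead core, 4.44% for the HNF4 core and 16.3% for the nuclear receptor core. The RefSeq start site lay 50 bases from the annotated start of the transcript with most reads in Apoa1, 28 bases in Apoa2, 4 bases in Serpina7 and 1 base in Ambp. RefSeq lists 2 windows each for Apoa2 and Serpina7, of which 1 is shown. Distances are therefore to the RefSeq start of the window shown. A match is a description of the sequence only.

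Among the apolipoproteins, Apoa1 gave a clear signal in knockout islets and was nearly absent from control islets, Apoa2 was higher in knockout islets by 2.17-fold, and Apoe was the most abundant of all 10 genes in both groups and was not called. Apoa4 had no reads and Apob only a few.

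Apoa1 (ENSMUSG00000032083) lies on the plus strand of chromosome 9 from 46228580 to 46230466 in GRCm38. It had 214, 281 and 247 estimated reads in knockout replicates 1, 2 and 3, against 5, 8 and 5 reads in control replicates 1, 2 and 3. That is 8.59, 17.7 and 9.29 CPM in knockout libraries, against 0.209, 0.345 and 0.205 CPM in control libraries. Every knockout library lay far above every control library, and knockout replicate 2 was the highest. The means were 11.9 ± 5.07 CPM in knockout and 0.253 ± 0.0794 CPM in control islets (SD, n = 3 each), a log2 fold change of 5.52 (SE 0.44) or 45.9-fold. With knockout replicate 2 left out, the log2 fold change came to 5.12. No control library reached the 0.413 CPM that the filter on low counts required, so Apoa1 entered the test through its knockout libraries alone. All of its reads were assigned to the protein-coding transcript Apoa1-201, which has 4 exons and 1035 bases.

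Apoa2 (ENSMUSG00000005681), on the plus strand of chromosome 1 from 171225054 to 171226379, encodes the second protein of high-density lipoprotein. It read 6.14, 8.13 and 4.59 CPM in knockout replicates 1, 2 and 3, against 2.75, 2.88 and 3.00 CPM in control replicates 1, 2 and 3. The groups did not overlap, and the knockout libraries were spread far more widely than the control libraries. The means were 6.29 ± 1.77 CPM in knockout and 2.88 ± 0.122 CPM in control islets (SD, n = 3 each). Apoa2 rose in knockout islets by a log2 fold change of 1.12 (SE 0.28, adjusted p = 0.0413 in edgeR's quasi-likelihood test). The call was lost in all 6 fits that left out 1 library (log2 fold change 0.90 to 1.31, adjusted p 0.0507 to 0.117), with limma-voom (adjusted p = 0.0501), with an offset for transcript length (adjusted p = 0.0533) and with the acinar level as a covariate (adjusted p = 0.0687). In the authors' deposited table the log2 fold change of Apoa2 is 0.91 (adjusted p = 0.00596). Its reads came from short protein-coding transcripts that share most of their sequence, Apoa2-201, Apoa2-202 and Apoa2-204, and the division among them is an estimate. Apoa2-204 was assigned 31.9% ± 7.94 of the reads in knockout and 2.04% ± 3.53 in control libraries (SD, n = 3 each).

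Apoe (ENSMUSG00000002985), which is transcribed from the minus strand at 19696109 to 19699188 of chromosome 7, read 101, 109 and 124 CPM in knockout replicates 1, 2 and 3, against 116, 122 and 115 CPM in control replicates 1, 2 and 3. The ranges overlapped, with knockout libraries at both the low and the high end. The log2 fold change was -0.08 (SE 0.13, adjusted p = 0.724, edgeR), and no alternative called it. Of 11 annotated transcripts 9 had reads. The protein-coding Apoe-209 took 58.1% ± 3.16 of them in knockout and 53.5% ± 1.61 in control libraries, and the non-coding Apoe-202 took 35.6% ± 3.20 in knockout and 40.2% ± 1.18 in control libraries (SD, n = 3 each). Summed macrophage markers, a known source of Apoe, were 96.7 to 104 CPM in knockout and 80.2 to 128 CPM in control libraries. Of these 12 markers, Cd68 and Mrc1 were called higher, C1qa was called lower and 9 were not called (edgeR). With the acinar level as a covariate 0 of them were called. What part macrophages had in the level of Apoe was not tested.

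Apob and the intestinal apolipoprotein gene Apoa4 gave few reads or none. Apob (ENSMUSG00000020609), on the plus strand of chromosome 12 from 7977648 to 8016835, had 6, 3 and 10 reads in knockout replicates 1, 2 and 3, against 6, 23 and 8 reads in control replicates 1, 2 and 3. It did not pass the filter and was not tested, and the ranges overlapped. In the authors' deposited table its log2 fold change is -0.03 (adjusted p = 0.932). Apoa4 (ENSMUSG00000032080), on the plus strand of chromosome 9 from 46240696 to 46243459, had 0 reads in every library, which allows a level of up to 0.189 CPM in the shallowest library, from 3 reads and for counting error only.

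**Figure D1:**
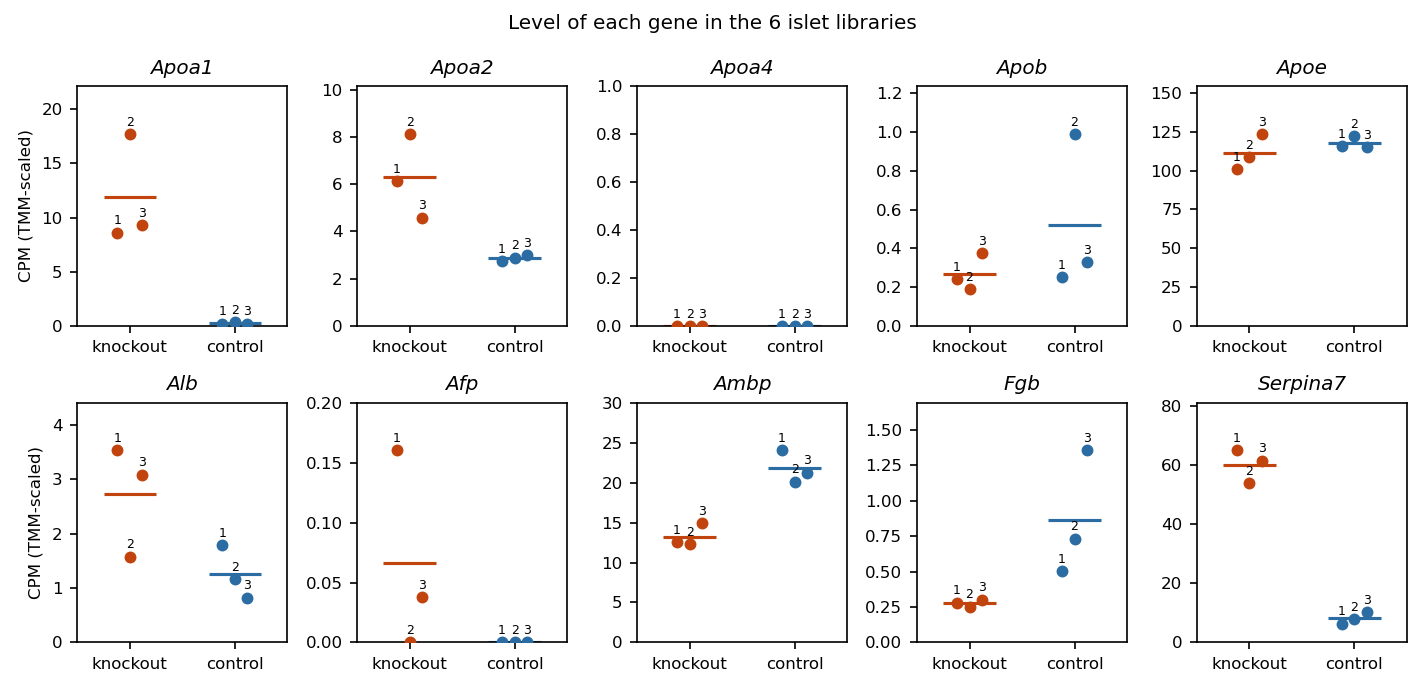
Level of each of the 10 genes in CPM on TMM-scaled library sizes, by library, with knockout left of control; points are libraries with their replicate number, lines are group means, and each panel has its own axis from 0. Apoa1 at 8.59 to 17.7 CPM and Serpina7 at 53.9 to 64.8 CPM in knockout libraries lie far above their control libraries, Ambp lies below its control libraries, and Apoe overlaps.

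Among the plasma proteins, Serpina7 had the clearest difference, Ambp was lower in knockout islets, and albumin and fibrinogen beta were not called and alpha-fetoprotein was not tested. Serpina7 (ENSMUSG00000031271), which is transcribed from the minus strand at 139079257 to 139085236 of chromosome X, read 64.8, 53.9 and 61.3 CPM in knockout replicates 1, 2 and 3, against 6.38, 7.79 and 10.2 CPM in control replicates 1, 2 and 3. The knockout libraries lay within a narrow band well above all control libraries. The means were 60.0 ± 5.59 CPM in knockout and 8.13 ± 1.94 CPM in control islets (SD, n = 3 each), a log2 fold change of 2.88 (SE 0.20) or 7.38-fold. Across the alternatives and left-out libraries the log2 fold change was 2.73 to 3.08. The transcript Serpina7-201, of 5 exons and 2330 bases, carried 94.3% ± 1.41 of the reads in knockout and 94.1% ± 3.05 in control libraries.

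Ambp (ENSMUSG00000028356), which is transcribed from the minus strand at 63143275 to 63154799 of chromosome 4, moved the other way. It read 12.6, 12.3 and 14.9 CPM in knockout replicates 1, 2 and 3, against 24.0, 20.1 and 21.3 CPM in control replicates 1, 2 and 3. The groups did not overlap in CPM. The means were 13.2 ± 1.43 CPM in knockout and 21.8 ± 2.02 CPM in control islets (SD, n = 3 each). Ambp fell in knockout islets by a log2 fold change of -0.72 (SE 0.16, adjusted p = 0.0292, edgeR). This call too was lost in all 6 fits without 1 library (log2 fold change -0.81 to -0.65, adjusted p 0.0574 to 0.0873) and with the acinar level as a covariate (-0.84, adjusted p = 0.106). With an offset for transcript length the log2 fold change was -0.56 (adjusted p = 0.123, edgeR), and the short transcript Ambp-202 of 375 bases took 5.03% ± 2.17 of the reads in knockout and 2.24% ± 0.537 in control libraries. Per length, Ambp read 16.8, 10.9 and 23.0 TPM in knockout libraries and 23.3, 16.0 and 19.9 TPM in control libraries, and the groups overlapped on that scale. Unlike the CPM used here, TPM carries no TMM scaling, so composition as well as length enters that scale. In the authors' deposited table the log2 fold change of Ambp is -0.46 (adjusted p = 0.0778).

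Alb (ENSMUSG00000029368), on the plus strand of chromosome 5 from 90460897 to 90476602, had 88, 25 and 82 reads in knockout replicates 1, 2 and 3, against 43, 27 and 20 reads in control replicates 1, 2 and 3. Knockout replicate 2, at 1.57 CPM, fell below the 1.79 CPM of control replicate 1, so the groups overlapped. The log2 fold change was 1.13 (SE 0.42, adjusted p = 0.131, edgeR) and 0.57 with the acinar level as a covariate. Summed acinar markers were 4945, 2653 and 13790 CPM in knockout replicates 1, 2 and 3, against 2140, 3384 and 886 CPM in control replicates 1, 2 and 3. Among knockout libraries Alb was lowest where the acinar markers were lowest, and among control libraries it was lowest in replicate 3, where they were lowest too. The highest Alb and the highest acinar sum were in different libraries in both groups. This order over libraries was not tested, nor was any part of acinar cells in the level of Alb.

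Fgb (ENSMUSG00000033831), which is transcribed from the minus strand at 83040141 to 83049863 of chromosome 3, had 7, 4 and 8 reads in knockout replicates 1, 2 and 3, against 12, 17 and 33 reads in control replicates 1, 2 and 3. The groups did not overlap in CPM, at 0.252 to 0.301 CPM in knockout and 0.501 to 1.36 CPM in control libraries. The log2 fold change of -1.60 (SE 0.47) was not called (adjusted p = 0.0699, edgeR). Fgb passed the filter only through its control libraries. The genes of the partner chains, which lie beside it and were looked at after their values were seen, had most of their reads in 1 library of each group: Fgg had 67, 1 and 0 reads in knockout replicates 1, 2 and 3, against 15, 0 and 0 reads in control replicates 1, 2 and 3. Fga had 4 reads in knockout replicate 1 and 6 reads in control replicate 1 and 0 in the others. Afp (ENSMUSG00000054932), on the plus strand of chromosome 5 from 90490737 to 90508907, had 4, 0 and 1 reads in knockout replicates 1, 2 and 3, against 0 reads in each control library, which allows up to 0.129 CPM there. It was not tested.

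Of the 8 genes that were not picked for their difference, 5 were tested, with Apoa2 called higher and Ambp called lower. Across all tested genes 9.95% were called in either direction. The groups of Apoa2, Ambp and Fgb did not overlap, beside 17.6% of all tested genes with knockout above and 17.2% with knockout below. Since the genes were chosen with this comparison in view, and Apoa1 and Fgb entered it through 1 group only, nothing is read from these counts.

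**Figure D2:**
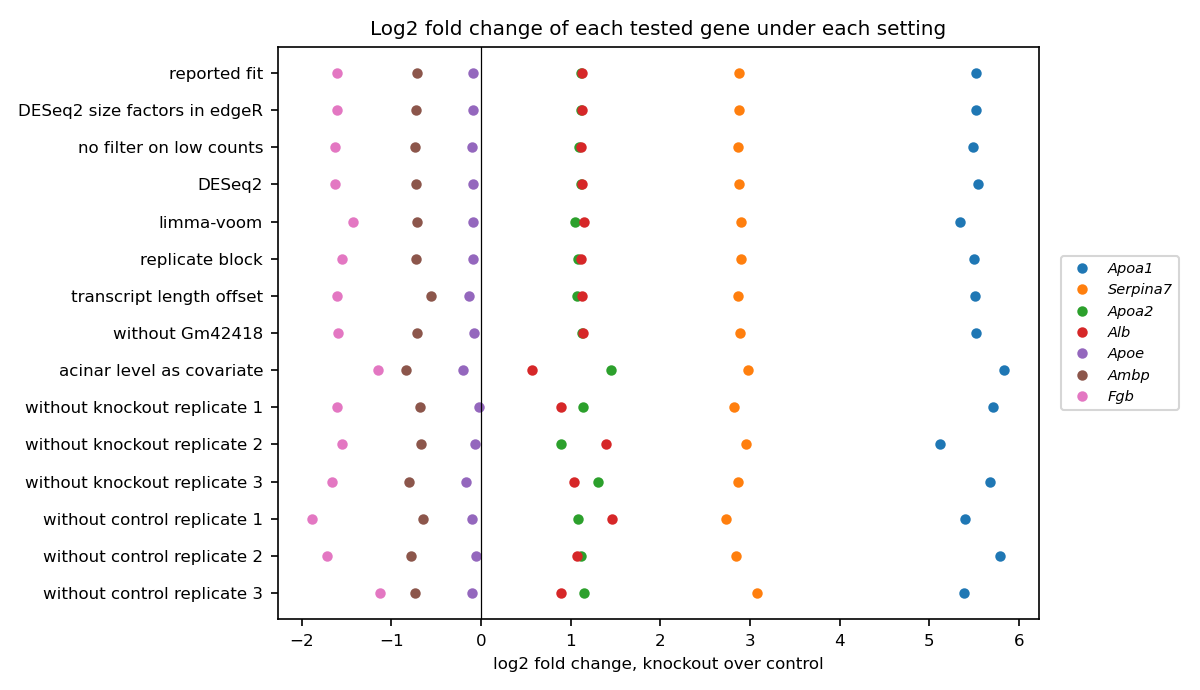
Log2 fold change, knockout over control, of each of the 7 tested genes (colours) in the reported fit and the 14 alternatives (rows, with the reported fit at the top). Apoa1 stayed between 5.12 and 5.84 and Serpina7 between 2.73 and 3.08; Apoa2 ran from 0.90 to 1.45, Ambp from -0.84 to -0.56 and Alb from 0.57 to 1.47.

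Levels of different genes can be compared per length, in TPM. In knockout islets Apoe was highest at 166 ± 47.9 TPM, followed by Serpina7 at 46.0 ± 15.4, Apoa2 at 21.7 ± 3.73, Ambp at 16.9 ± 6.10, Apoa1 at 14.3 ± 1.90 and Alb at 1.73 ± 0.928 TPM (SD, n = 3). In control islets Apoe led at 144 ± 9.14 TPM, before Ambp at 19.7 ± 3.68, Apoa2 at 8.49 ± 1.09, Serpina7 at 4.93 ± 1.67, Alb at 0.604 ± 0.261, Apoa1 at 0.258 ± 0.0543 and Fgb at 0.212 ± 0.119 TPM (SD, n = 3). Serpina7 was thus the second of the 10 genes in knockout and the fourth in control islets. Within knockout islets the ranges of Ambp overlapped those of both Apoa2 and Apoa1, and within control islets those of Apoa1 and Fgb overlapped. Fgb, Afp and Apob averaged 0.0857, 0.0445 and 0.0418 TPM in knockout islets, with overlapping ranges. Knockout replicate 2, the library with 14.7% of its reads on Gm42418, had the lowest TPM among knockout libraries for Serpina7, Apoe, Ambp and Alb.

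The genes around each locus were read in the same fit. Of 33 neighbouring protein-coding genes, the nearest 2 on each side of each gene, 21 were tested, 6 rose and 0 fell in knockout islets (edgeR; 1 was lower at an unadjusted p below 0.05, and DESeq2 called 8 higher and 0 lower). Over all tested genes edgeR called 4.1% higher and 5.84% lower, and DESeq2 7.29% higher and 8.73% lower. The loci include those of the picked genes, and fits without 1 library called 0 to 4 neighbours, so nothing is read from these counts. The uncharacterised gene 4930513O06Rik, on the opposite strand of chromosome X, starts 1007 bases from the start of Serpina7. It read 0.482, 0.693 and 0.527 CPM in knockout replicates 1, 2 and 3, against 0.0417, 0.129 and 0.0411 CPM in control replicates 1, 2 and 3. Knockout libraries were above all control libraries, at no more than 14 reads each, and the log2 fold change was 2.90 (SE 0.53, adjusted p = 0.0143, edgeR). No control library reached the filter level of 0.413 CPM, so the gene entered the test through its knockout libraries alone. The call held in 3 of 6 fits without 1 library, and the log2 fold change was 3.59 without control replicate 2.

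Next to Apoa1, the apolipoprotein genes of the same cluster stayed silent. Apoc3 read 0.0469 ± 0.0140 CPM in knockout and 0.0707 ± 0.0507 CPM in control islets, from 1 to 3 reads a library, and Apoa5 had 0 reads in all 6 libraries. Sik3, a kinase gene that ends 4385 bases before Apoa1, was not called at -0.10 on the log2 scale (adjusted p = 0.726, edgeR), and Pafah1b2, which encodes a subunit of a platelet-activating factor acetylhydrolase, was not called at -0.15 (adjusted p = 0.689). Zpr1, a zinc finger protein gene on the far side of the cluster, rose by 0.54 (adjusted p = 0.0441). On either side of Apoa2, Tomm40l, a relative of the mitochondrial import pore, rose by 0.96 (adjusted p = 0.0394) and Fcer1g, the gamma chain of Fc receptors, by 1.16 (adjusted p = 0.0360). Near Ambp, the fibrillar collagen gene Col27a1 rose by 1.37 (adjusted p = 0.0250) and the kinesin gene Kif12 was not called at 0.53 (adjusted p = 0.313). Klhl29, the nearest protein-coding gene to the left of Apob although 2601965 bases away, rose by 1.04 (adjusted p = 0.0336), and Plrg1, a splicing factor gene beside Fgb, was not called at 0.02 (adjusted p = 0.949). These are all edgeR values over all tested genes. Of the rises in this paragraph, those of Zpr1 and Klhl29 were called in 0 of 6 fits without 1 library (Zpr1 at an adjusted p of 0.0691 to 0.171 and Klhl29 of 0.0543 to 0.117), those of Tomm40l and Fcer1g in 1 and that of Col27a1 in 2. Klhl29 (adjusted p = 0.117) and Tomm40l (adjusted p = 0.0555) also lost the call with the transcript length offset. Sik3, Apoc3, Apoa5, Zpr1 and Tomm40l were named after their values were seen.

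**Figure D3:**
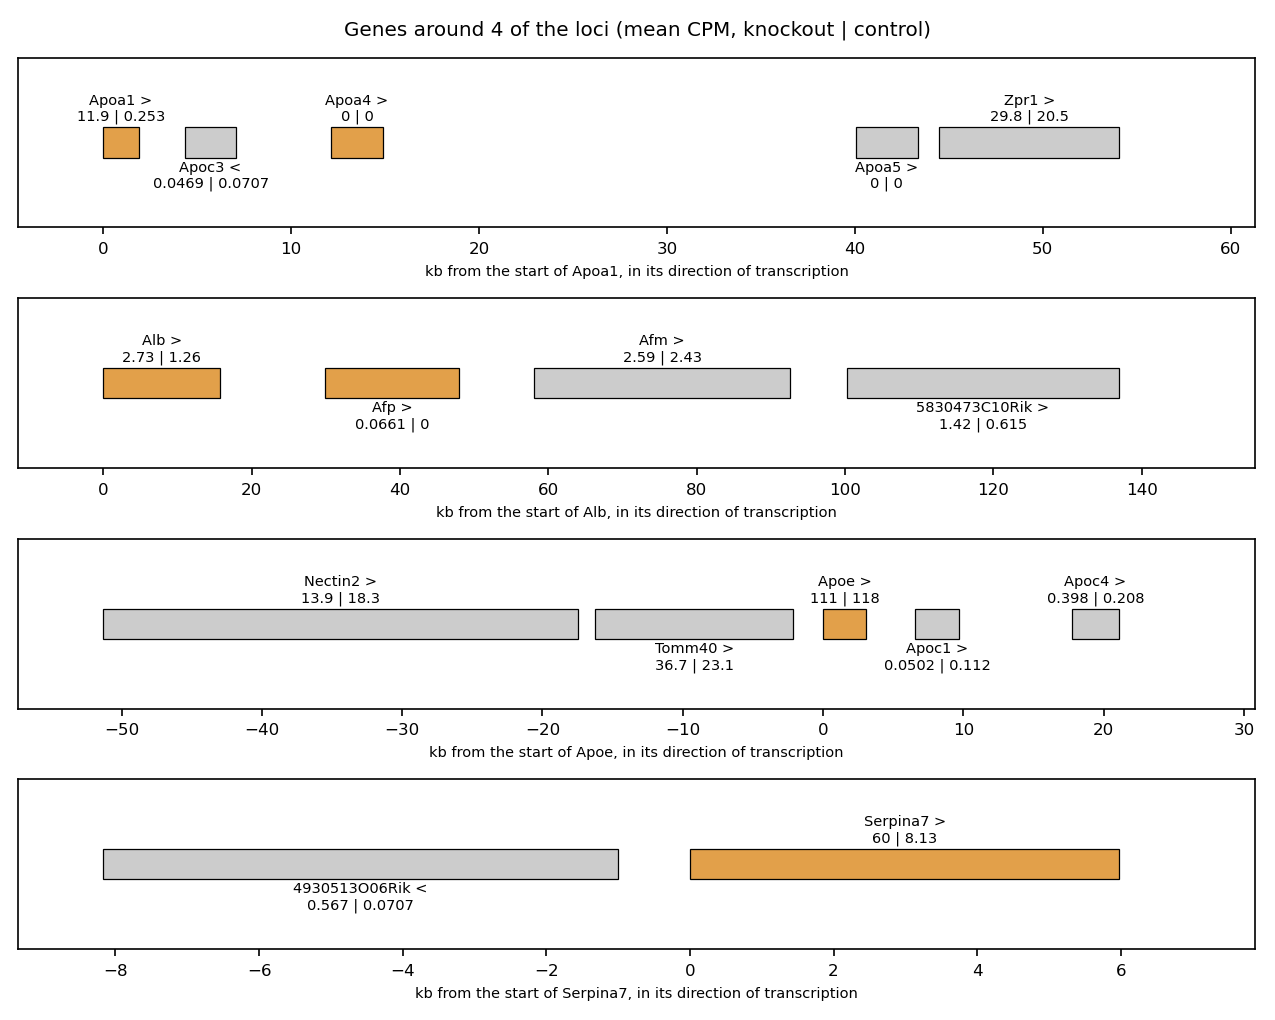
Genes at the loci of Apoa1, Alb, Apoe and Serpina7, drawn to scale as boxes by distance in kb from the start of that gene in its direction of transcription; orange boxes are the genes described here, grey boxes their neighbours, arrows give the direction of transcription and numbers the mean CPM in knockout and then control islets. Apoa1 (11.9 in knockout, 0.253 in control) stands beside silent Apoc3, Apoa4 and Apoa5, and the low 4930513O06Rik (0.567 in knockout, 0.0707 in control) lies head to head with Serpina7.

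The other genes of lipoprotein metabolism, other plasma protein genes and liver transcription factors were described by lists. Beside the counts in each list, edgeR called 4.1% of all tested genes higher and 5.84% lower, and DESeq2 7.29% higher and 8.73% lower. The lists were chosen with earlier results of these data known, so nothing is read from their counts. Among 15 other apolipoprotein and related genes, 3 were tested, 1 rose and 0 fell (edgeR; 1 was lower at an unadjusted p below 0.05, and DESeq2 called 1 higher and 0 lower); the median log2 fold change was -0.22, beside 0.01 over all tested genes. Apod, an apolipoprotein of the lipocalin family, rose, at 14.6 ± 3.27 CPM in knockout and 6.68 ± 1.37 CPM in control islets (SD, n = 3 each; log2 fold change 1.12, adjusted p = 0.0263), and kept the call in 1 of 6 fits without 1 library. Clu, the chaperone clusterin, at -0.22, and Apof, an inhibitor of cholesteryl ester transfer in human plasma, at -1.66 (adjusted p = 0.0907) were not called. Apoc1 was not tested, at 0, 0 and 4 reads in knockout replicates 1, 2 and 3, against 5, 2 and 1 reads in control replicates 1, 2 and 3.

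Of 16 genes of lipoprotein assembly and lipid loading, 13 were tested, 0 rose and 2 fell, with a median log2 fold change of -0.38 (edgeR; 1 was higher at an unadjusted p below 0.05, and DESeq2 called 1 higher and 3 lower). A1cf, the RNA-binding partner of the enzyme that edits Apob mRNA, fell, at 9.75 ± 1.51 CPM in knockout and 27.9 ± 2.66 CPM in control islets (SD, n = 3 each; log2 fold change -1.51, adjusted p = 0.00295), and kept the call in 6 of 6 fits without 1 library. Mia3, which helps load large cargo at exit sites of the endoplasmic reticulum, fell (log2 fold change -0.67, adjusted p = 0.0310) and kept the call in 1 of those 6 fits. P4hb, the disulfide isomerase that forms a complex with Mttp, at -0.38, and the cargo export genes Surf4 at -0.09 and Sar1b at -0.02 were not called.

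Of 26 receptors and remodelling genes, 20 were tested, 2 rose and 3 fell, with a median log2 fold change of -0.04 (edgeR; DESeq2 called 1 higher and 6 lower). Vldlr, the receptor for very-low-density lipoprotein, fell, at 19.0 CPM in knockout and 52.6 CPM in control islets (log2 fold change -1.47, adjusted p = 0.00360), and kept the call in 6 of 6 fits without 1 library. Lrp2, the endocytic receptor megalin, rose (log2 fold change 3.32, adjusted p = 0.0223). It was called in 1 of those 6 fits, the one without control replicate 1, where the log2 fold change was 4.82. Hepatic lipase, Lipc, named after its value was seen, also passed the threshold (log2 fold change 2.08, adjusted p = 0.0488, edgeR), but not in DESeq2 (adjusted p = 0.119), limma-voom (0.0502), the replicate block (0.0535) or any of the 6 fits without 1 library. Neither Lrp2 nor Lipc reached the filter level in any control library, so both were tested through their knockout libraries alone. Lpl, lipoprotein lipase, was not called at -0.82 (adjusted p = 0.140, and 0.0458 in DESeq2), nor were the receptors Lsr at 0.24 and Sort1 at -0.17.

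Of 60 other liver plasma protein genes, 28 were tested, 2 rose and 7 fell (edgeR), with a median log2 fold change of 0.04, and 9 had 0 reads in every library. Over all tested genes edgeR called 4.1% higher and 5.84% lower. In this list DESeq2 called 3 higher and 8 lower, and the fit with the acinar level as a covariate 1 higher and 4 lower. Gc, the vitamin D binding protein, which is also known from pancreatic alpha cells, rose, at 437 CPM in knockout and 117 CPM in control islets (log2 fold change 1.90, adjusted p = 0.000888). Rbp4, the retinol carrier of plasma, fell, at 75.0 CPM in knockout and 232 CPM in control islets (log2 fold change -1.63, adjusted p = 0.00177). Protein C, Proc, fell (log2 fold change -2.30, adjusted p = 0.00375), and so did the complement gene C8b (log2 fold change -1.03, adjusted p = 0.00461). These 4 calls held in 6 of 6 fits without 1 library. Serpina10, an inhibitor of activated coagulation factor X, fell (log2 fold change -0.59, adjusted p = 0.0400, held in 1 of 6 fits), and Serpinf1, named after its value was seen, rose by 1.69 (adjusted p = 0.0458, held in 0 of 6 fits). Ttr, transthyretin, which like Serpina7 carries thyroid hormone and is made by islet cells, was at 2742 CPM in knockout and 1882 CPM in control islets and was not called (log2 fold change 0.54, adjusted p = 0.179, edgeR). Reads of Serpina1a to Serpina1e, near-identical copies, cannot be divided with certainty.

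Of 33 transcription factors known from liver, 29 were tested, 1 rose and 4 fell, with a median log2 fold change of -0.43 (edgeR; 2 were higher and 11 lower at an unadjusted p below 0.05). DESeq2 called 2 higher and 9 lower, as did the fit with the replicate block. Over all tested genes edgeR called 5.84% lower in the reported fit, DESeq2 8.73% and the replicate block 7.86%. Creb3l3, a membrane-bound factor that drives apolipoprotein genes in liver, fell, at 0.0988 CPM in knockout and 1.29 CPM in control islets (log2 fold change -3.58, adjusted p = 0.00702), in 6 of 6 fits without 1 library. The bile acid receptor Nr1h4 (log2 fold change -1.01, adjusted p = 0.0135, in 4 of 6 fits) and the xenobiotic receptor Nr1i2 (log2 fold change -3.57, adjusted p = 0.0212, in 2 of 6) fell as well. Without knockout replicate 1 the fitted change of Nr1i2 was -5.03. Creb3l3 and Nr1i2 reached the filter level in control libraries alone. Pparg, a nuclear receptor of lipid storage, rose by 0.93 (adjusted p = 0.0357, in 1 of 6). Hnf4a, a regulator of many liver and islet genes, was at 41.9 CPM in knockout and 47.2 CPM in control islets (log2 fold change -0.17, adjusted p = 0.750, and 0.08 with a transcript length offset). Prox1 at -0.18, Foxa2 at -0.49 (adjusted p = 0.246, and 0.0451 with a replicate block) and the clock factor Dbp at -1.18 (adjusted p = 0.0795, 0.0120 with the block, 0.00573 in DESeq2 and 0.0145 without the filter on low counts) were not called. All of these values are edgeR's where no other tool is named.

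**Figure D4:**
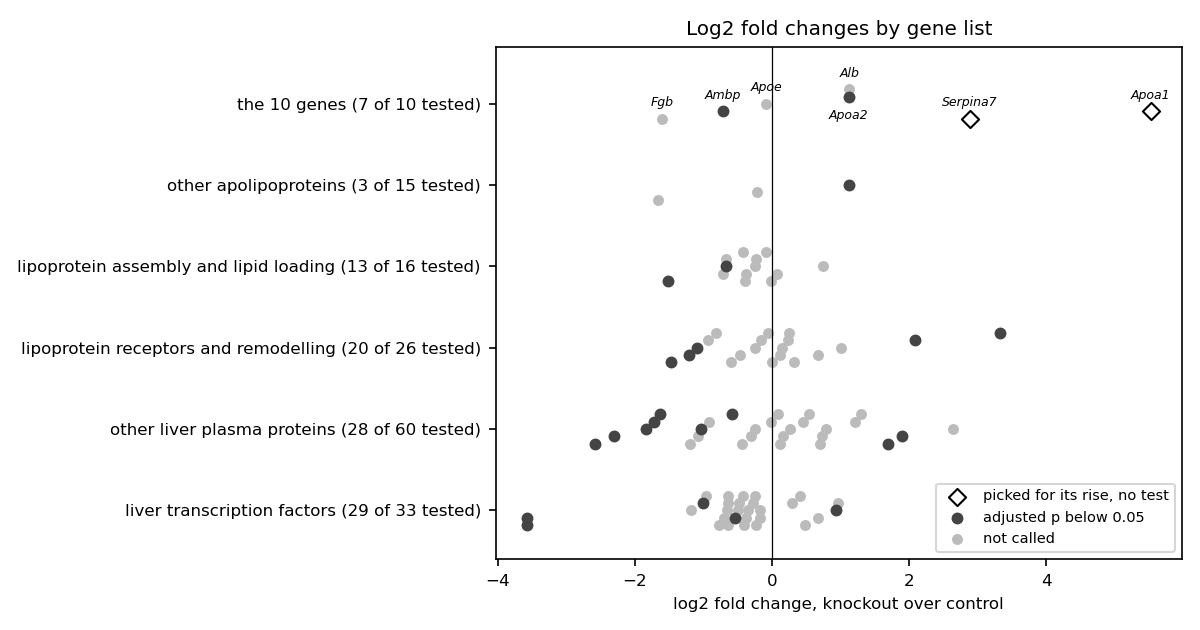
Log2 fold changes, knockout over control, of the tested members of each gene list; black points were called by edgeR at an adjusted p below 0.05, grey points were not, and open diamonds are Apoa1 and Serpina7, which were picked for their difference. Creb3l3 (-3.58) and Nr1i2 (-3.57) lie at the low end and Lrp2 (3.32) is the highest outside the 10 genes. Creb3l3 and Nr1i2 reached the filter level in control libraries alone and Lrp2 in knockout libraries alone, with few reads in the other group.

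Levels of marker genes of other cell types were set beside these results. Of 16 hepatocyte markers 7 had 0 reads in every library (Cyp3a11, Cyp2c29, Cyp1a2, Cyp7a1, Hpd, Serpina3k and Mup3), and 5 were tested, of which Ttc36 was called higher. The summed hepatocyte markers were 22.2, 27.5 and 22.3 CPM in knockout replicates 1, 2 and 3, against 33.3, 35.6 and 26.9 CPM in control replicates 1, 2 and 3. The sums overlapped between groups. Nearly all of these reads were those of Tat, Uox, Tdo2, Serpina1a and Ttc36, and the other 11 markers had at most 6 reads in any library. Without Tat, Uox and Tdo2 the sum was 3.53 to 4.06 CPM in knockout and 0.751 to 2.15 CPM in control libraries. These ranges did not overlap. Ttc36 and Serpina1a made up most of that remainder, which was split off after the values were seen. Of the markers left out, Tat went the other way, at 8.44 CPM in knockout and 20.3 CPM in control islets, without overlap. Tdo2 was at 4.15 CPM in knockout and 2.31 CPM in control islets, and Uox at 7.65 and 7.82 CPM. The reported fit called 0 hepatocyte markers lower, while DESeq2, limma-voom and the replicate block each called 1 lower. No rise or fall of hepatocyte markers as a whole is read from these sums. Ttc36 had 48, 28 and 40 reads in knockout replicates 1, 2 and 3, against 3, 11 and 9 reads in control replicates 1, 2 and 3, and its call held in 3 of 6 fits without 1 library. The summed enterocyte markers were 69.6 to 102 CPM in knockout and 232 to 311 CPM in control libraries, with Fabp1, Alpi, Sis and Cdx1 at 0 reads, Vil1 and Anpep called lower and Mep1a, which reached the filter level in knockout libraries alone, called higher. Most of that sum was Vil1, at 48.9 CPM in knockout and 117 CPM in control islets, and Anpep, at 30.8 and 148 CPM. The acinar sums overlapped and 1 of 15 acinar markers, Try5, was called, but 12 were higher at an unadjusted p below 0.05. With the replicate block 0 acinar markers were called and 2 were higher at an unadjusted p below 0.05 (edgeR; DESeq2 without the block called 2). Try5 was called in 2 of 6 fits without 1 library, with a log2 fold change of 2.21 in the reported fit and 1.43 without knockout replicate 3. Endothelial markers summed to 739 to 991 CPM in knockout and 552 to 701 CPM in control libraries. What part any of these cell types had in the levels of the 10 genes was not tested.

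**Figure D5:**
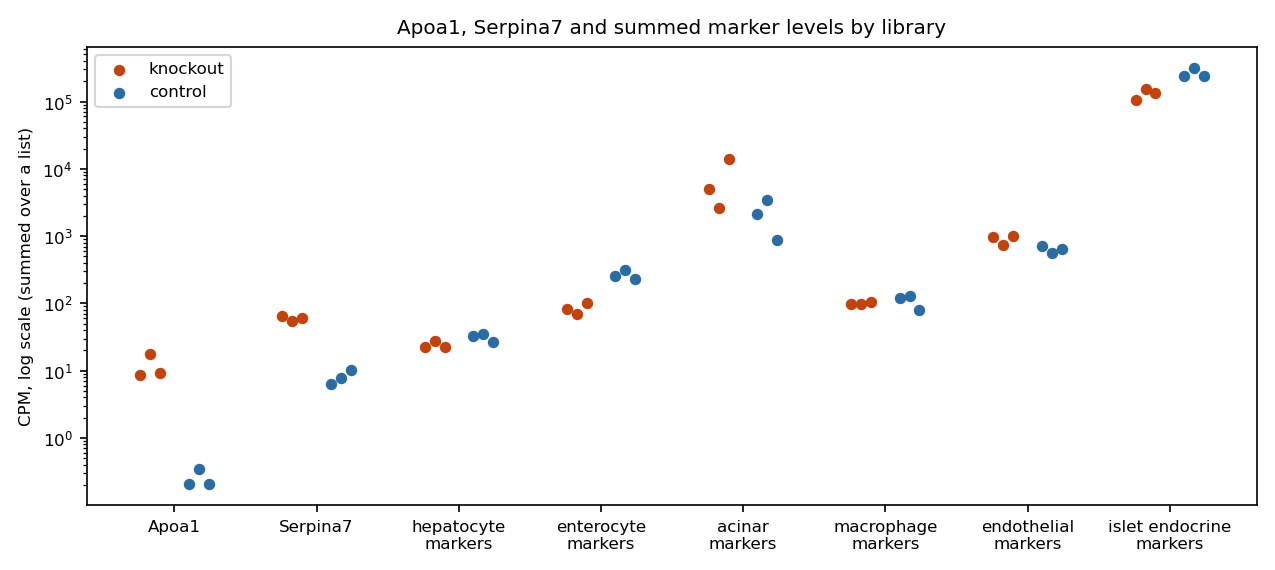
Levels of Apoa1 and Serpina7 and summed levels of 6 marker lists, in CPM on a log scale, by library, with the 3 knockout libraries left of the 3 control libraries for each. Apoa1 and Serpina7 separate the groups, endocrine and enterocyte sums are lower and endothelial sums higher in knockout libraries, and hepatocyte, acinar and macrophage sums overlap. The enterocyte sum is mostly Vil1 and Anpep.

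The genes whose levels ran most like those of Apoa1 and of Serpina7 over the 6 libraries were taken from 11597 tested genes of at least 5 CPM on average, by the mean absolute difference in log2 CPM after each gene was centred on its own mean. Since Apoa1 and Serpina7 were picked for their difference, such genes are ones with a difference of like size. Those nearest to Apoa1 were Slc37a2, a sugar phosphate transporter (0.325), Tacr3, the neurokinin receptor (0.546), S100a4, a calcium-binding protein (0.878), Srl, sarcalumenin of muscle calcium stores (0.986), and Xpnpep2, a membrane aminopeptidase (1.01). Slc37a2 was at 26.2 CPM in knockout and 0.547 CPM in control islets, and Xpnpep2 at 28.9 CPM in knockout and 0.140 CPM in control islets. Those nearest to Serpina7 were Cldn2, a tight junction protein (0.201), P3h2, a collagen prolyl hydroxylase (0.207), Dach2 (0.244), Ccdc141 (0.259) and Frmd5 (0.280). Cldn2 was at 25.02 CPM in knockout and 3.28 CPM in control islets.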

How the data were processed

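RNA of 6 islet libraries, 3 Dpy30 knockout and 3 control, was enriched for poly(A) and made into directional libraries, per the labels' protocols. Trimmomatic, Salmon, DESeq2, GRCm38 and mm10 are listed, without versions, per the submitters' processing notes; the annotation and the settings used with them are not known here. The authors deposited, library by library, estimated counts and TPM of transcripts, per the file headers. The authors also deposited a table of log2 fold changes and adjusted p-values, which is quoted only where named. For 94.7% of 16425 shared genes its sign matched knockout over control. How its log2 fold changes were computed is not known here, so their size may not compare directly with those of edgeR. A table of scaled signal with 6 columns of per-library values was not used.

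Transcripts were assigned to genes by GENCODE vM21 on GRCm38; 139852 of 140948 matched, with 99.6 to 99.7% of reads. Counts were added up over the transcripts of a gene, rounded to whole numbers, filtered with filterByExpr (minimum count 10), scaled by TMM and tested with edgeR 4.0.16 (R 4.3.3) by glmQLFTest, with group as the only term and Benjamini-Hochberg adjustment over 16430 genes, two-sided at 0.05. The procedure was checked on simulated counts. CPM use TMM-scaled library sizes; a prior count of 2 was used for log2 values of single libraries. Alternatives were DESeq2 1.42.0, limma-voom (limma 3.58.1), DESeq2 size factors, no filter, a transcript length offset, Gm42418 left out, acinar level as a covariate, the replicate number as a block, and each library left out.

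Replicate numbers are shared between groups in the labels. Deviations from group means correlated at 0.427, 0.135 and 0.196 for equal numbers, all over 0.1, and at -0.318 to 0.14 for unequal numbers. Knockout replicate 2 and control replicate 3, at 0.14, passed 0.1 too, so this check does not single out equal numbers. Libraries of equal number were treated as pairs in the block alternative only, and what a number marks is not given. Within a group, no libraries agreed within sampling noise (chi-square divided by its degrees of freedom, 51.7 to 314.8). Promoter sequences are those of RefSeq on GRCm38.p6, matched for all 10 genes by symbol.

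The 10 genes and all lists were chosen with earlier results of these data known. The genes named besides them are, per list and among neighbours, up to 4 called genes of smallest p and up to 4 of highest mean TPM, and per picked gene the 5 most alike, unless the text says otherwise; some genes that this takes are not reported here. Intervals and limits for 0 reads cover counting error only.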

Additional observations from a re-analysis of the deposited data

How the results depend on the processing

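The counts of calls are each fit's own and were not matched gene by gene. Over all genes the reported fit called 1634, DESeq2 2633, the fit with the acinar level as a covariate 416, and fits without 1 library 737 to 1330, 1330 being the count without knockout replicate 2. Counting Apoa1 and Serpina7, which were picked for their difference and for which passing is no test, 4 of the 10 genes were past the threshold in the reported fit, 2 with the transcript length offset, 2 with the acinar covariate and 2 in each of the 6 fits without 1 library; Apoa2 and Ambp were past it in the reported fit and in none of these alternatives. In the 5 lists the reported fit called 22 genes, DESeq2 34, the acinar covariate 8 and fits without 1 library 11 to 15. Among neighbours the reported fit called 6 and the acinar covariate 0 (edgeR, with 9 at an unadjusted p below 0.05). Fits without 1 library called 0 to 4 neighbours, with 0 without knockout replicate 3 and without control replicates 1 and 3 (edgeR, with 7 to 9 at an unadjusted p below 0.05). The acinar covariate and the left-out libraries also leave fewer residual degrees of freedom. With the replicate number as a block 2430 genes were called over all, 4 of the 10, 31 in the lists and 7 neighbours. Among the genes named with a test, the block added the calls of Dbp and Foxa2 and ended those of Lipc and Try5.

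The direction turned only for uncalled genes of small change. With the acinar covariate the log2 fold change of Surf4 was 0.027 and that of Sar1b 0.125; with the transcript length offset that of Hnf4a was 0.082, and without the filter that of Plrg1 was -0.005. Over the 6 fits without 1 library it ran from -0.211 to 0.049 for Surf4, -0.177 to 0.078 for Sar1b, -0.305 to 0.005 for Sort1, -0.544 to 0.085 for Hnf4a, -0.66 to 0.097 for Prox1, -0.309 to 0.063 for Pafah1b2 and -0.036 to 0.073 for Plrg1. The other genes printed with a log2 fold change from the fit kept their direction under every alternative run.

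Apoa4, Apob, Afp, Fgb, Apoc1, Apoc3, 4930513O06Rik, Lrp2, Lipc and Nr1i2 had at most 33 reads a library, which limits the precision of their values.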
